A study of Mus musculus with 11 samples.

Results

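Loss of *Xbp1* in hepatocytes under a high fat sugar (HFS) diet was examined by comparing gene counts of *Xbp1* fl/fl hepatocytes with those of *Xbp1* LKO hepatocytes, all from HFS-fed mice, 6 of the 11 RNA-seq libraries in the series, taken by their group labels. *Xbp1* LKO mice carry a liver-specific deletion of *Xbp1* made by Cre under the albumin promoter, and *Xbp1* fl/fl mice carry the floxed gene without the deletion. All were adult male C57BL/6 mice given a Western diet with fructose and glucose in the drinking water for up to 6 weeks, and hepatocytes were purified on Percoll. Each group held 3 libraries, numbered 1 to 3 here within a group, and each library pooled samples of 2 mice, so that 6 mice stand behind each group. The 5 chow-fed libraries entered the model only to share its estimate of spread and to test whether the genotype difference depended on the diet. They were 3 *Xbp1* fl/fl and 2 *Xbp1* LKO libraries of 1 mouse each. The shared spread and the diet test therefore mix libraries of single mice with pools of 2. The deposited whole-number counts summed to 22405363, 21501344 and 22573249 in *Xbp1* fl/fl libraries 1 to 3 and to 23423149, 23888401 and 23232834 in *Xbp1* LKO libraries 1 to 3.

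XBP1 is the transcription factor of the IRE1 branch of the unfolded protein response (UPR). Stress in the endoplasmic reticulum (ER) makes IRE1 splice the *Xbp1* transcript, and the spliced form yields a factor that drives genes for translocation, folding, glycosylation and export of secreted proteins. Hepatocytes secrete most plasma proteins, use XBP1 also in lipid synthesis, and when they lack it carry highly active IRE1, whose nuclease can cut other transcripts at the ER, a process called regulated IRE1-dependent decay.

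*Xbp1* itself stood at 301, 295 and 242 CPM (counts scaled by library size and TMM factor) in the *Xbp1* fl/fl libraries and 117, 97.3 and 135 CPM in the *Xbp1* LKO libraries. The groups did not overlap, and the transcript fell by 1.26 on the log2 scale (SE 0.16, adjusted p = 0.00254) by the quasi-likelihood test of edgeR, adjusted by Benjamini-Hochberg over all genes tested, which is meant wherever an edgeR adjusted p is given. Reads of the remaining exons are part of this count, which therefore does not measure the deleted exon alone. Of 13303 genes tested, 543 (4.08%) passed an adjusted p of 0.05 in edgeR and are called changed, the sense of "called" below where no other tool is named: 256 (1.92%) higher and 287 (2.16%) lower in *Xbp1* LKO hepatocytes. For each of the 543, every *Xbp1* LKO library lay on the same side of every *Xbp1* fl/fl library. Over all genes tested this held for 3473 (26.1%). Called rises had a median level of 2.93 CPM in *Xbp1* fl/fl and 8.81 CPM in *Xbp1* LKO hepatocytes. Called falls had medians of 62.5 and 33.1 CPM, and all genes tested 13.4 and 13.6 CPM. Single called genes in either direction lay far from these medians. Rises were also larger, with a median log2 fold change of 1.60 and 101 of the 256 genes over 4-fold, against -0.96 and 35 of the 287 genes for falls. Together the genes that fell held a mean of 105895 CPM in *Xbp1* fl/fl and 44876 CPM in *Xbp1* LKO libraries, and those that rose 8895 and 21419.5 CPM.

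The balance of rises and falls depended on how libraries were scaled. The 10 most abundant genes, led by *Alb* and *Apoe*, took 16.9% to 19.3% of the counts in *Xbp1* fl/fl and 12.4% to 14.7% in *Xbp1* LKO libraries (difference of means -4.81, two-sided exact permutation p = 0.1, the smallest that 3 libraries against 3 allow). TMM factors, which adjust for such shifts, had a mean of 0.919 in *Xbp1* fl/fl and 1.10 in *Xbp1* LKO libraries (two-sided exact permutation p = 0.1). Scaled by library totals alone, the median log2 fold change of all genes moved from 0.01 to 0.27, and 86.9% of 1483 called genes were higher, against 47.1% of 543 with TMM. The number of called genes also depended on single libraries. It was 239, 275 and 230 without *Xbp1* fl/fl library 1, 2 or 3, and 184 and 285 without *Xbp1* LKO library 2 or 3, but 532 without *Xbp1* LKO library 1. In these bulk libraries fewer cells of a type and less RNA per cell cannot be told apart.

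**Figure D1:**
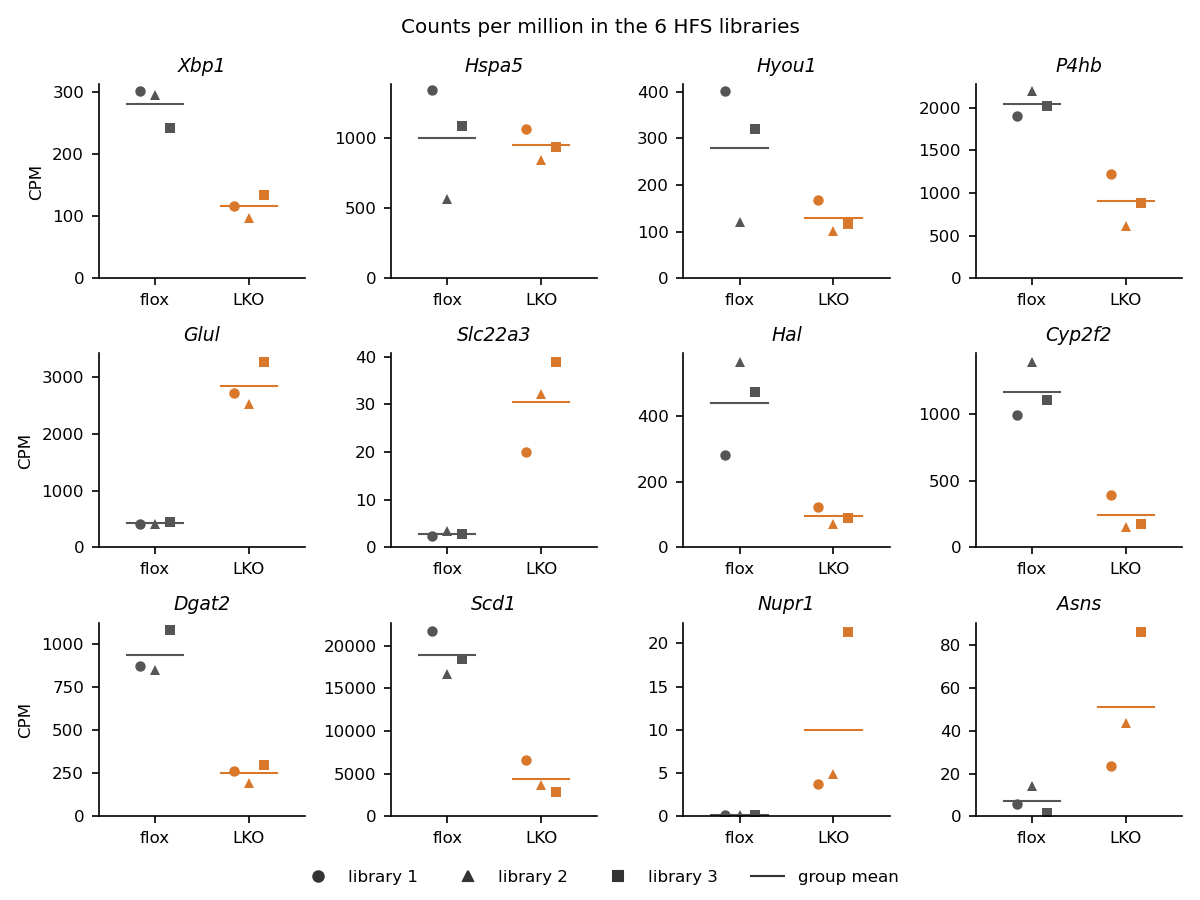
CPM (vertical axes, each starting at 0) of 12 genes in the 3 *Xbp1* fl/fl and 3 *Xbp1* LKO libraries fed HFS, with symbols for library numbers and bars for group means. The groups overlap for *Hspa5* and *Hyou1*, while *Glul* spans 414 to 442 CPM in *Xbp1* fl/fl and 2519 to 3269 CPM in *Xbp1* LKO libraries.

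Hepatocytes differ along the lobule, and genes of the central vein and of the portal tract split in *Xbp1* LKO hepatocytes. Of 24 pericentral genes tested, 10 were called higher and 0 lower, with a median log2 fold change of 0.93 against 0.01 over all genes tested. All 25 periportal genes had a negative fold change, 7 were called lower and 0 higher, and their median was -1.17. With library totals the medians were 1.19 and -0.92, and 23 of the 25 periportal values stayed negative. DESeq2 called 17 pericentral genes higher and 1 lower, and 14 periportal genes lower and 0 higher. *Glul* encodes glutamine synthetase, which the innermost ring of pericentral hepatocytes uses to capture ammonia. It had 419, 414 and 442 CPM in the *Xbp1* fl/fl libraries and 2718, 2519 and 3269 CPM in the *Xbp1* LKO libraries. The *Xbp1* fl/fl values lay close together, far under all 3 *Xbp1* LKO values, and *Glul* rose 6.67-fold (log2 fold change 2.74, SE 0.28, edgeR adjusted p = 0.00138). Its gain was the largest rise in mean CPM of any called gene. *Glul* lies at chr1:153899944-153909723 and *Slc22a3* at chr17:12418960-12507704 of GRCm38, apart from each other. *Slc22a3*, a transporter of organic cations, stood at 2.38, 3.46 and 2.89 CPM in *Xbp1* fl/fl and 20.1, 32.2 and 38.8 CPM in *Xbp1* LKO libraries. *Xbp1* LKO library 1 was the lowest of its group, and none of the *Xbp1* fl/fl libraries came near it (log2 fold change 3.38, SE 0.31, edgeR adjusted p = 0.000866). The ammonium transporter gene *Rhbg* rose as well, from 1.27 to 2.05 to 12 to 18.9 CPM (log2 fold change 3.13, SE 0.34, edgeR adjusted p = 0.00163). Other pericentral genes that rose handle glutamate and retinal: *Slc1a2*, a glutamate transporter (1.92, edgeR adjusted p = 0.00462), *Oat*, ornithine aminotransferase (1.48, adjusted p = 0.00398), and *Aldh1a1*, a retinal dehydrogenase (2.19-fold, adjusted p = 0.00631). The calls of these 6 genes were kept in every fit that left out 1 HFS library. The remaining 4, named after their values were seen, were the Wnt pathway genes *Nkd1* (2.56), *Lgr5* (1.58) and *Axin2* (1.29), and *Gulo* (0.72), the last enzyme of vitamin C synthesis. The pericentral P450 genes *Cyp2e1* (-0.61, adjusted p = 0.133) and *Cyp1a2* (-0.31, adjusted p = 0.667) were not called, the former called lower by DESeq2 (adjusted p = 0.0212), so the rise did not cover the whole list.

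On the periportal side, *Hal* encodes histidine ammonia-lyase, the enzyme that starts histidine breakdown. It was measured at 279, 564 and 473 CPM in *Xbp1* fl/fl and 124, 72.3 and 87.9 CPM in *Xbp1* LKO libraries. *Xbp1* fl/fl library 1 was the lowest control and still exceeded every *Xbp1* LKO library (log2 fold change -2.21, SE 0.41, edgeR adjusted p = 0.0129). *Cyp2f2*, a P450 of portal hepatocytes, had 997, 1394 and 1109 CPM in *Xbp1* fl/fl and 390.5, 155 and 174 CPM in *Xbp1* LKO libraries. *Xbp1* LKO library 1 kept the most *Cyp2f2* of its group, though less than any control (log2 fold change -2.28, SE 0.43, edgeR adjusted p = 0.0141). *Sds*, serine dehydratase, fell further (log2 fold change -2.51, SE 0.49, edgeR adjusted p = 0.0167), and *Sult5a1*, a sulfotransferase, fell too (log2 fold change -1.66, SE 0.39, edgeR adjusted p = 0.0377). *Ctsc* (-1.76), a lysosomal protease, and *Agxt* (-0.82), which detoxifies glyoxylate, were also called lower and were named after their values were seen. Periportal calls rested more on single libraries than pericentral ones: 1 to 8 genes were called lower when 1 HFS library was left out, against 9 to 12 pericentral genes called higher. Without *Xbp1* LKO library 2 or 3, *Hal* (adjusted p up to 0.0762), *Cyp2f2* (up to 0.0764) and *Sds* (up to 0.0867, lost also without *Xbp1* fl/fl library 2) were not called. *Sult5a1* kept its call only without *Xbp1* LKO library 1 or 2. *Cps1*, the entry enzyme of the urea cycle, had 8153, 7781 and 8410.01 CPM in *Xbp1* fl/fl and 4959, 3111 and 1555 CPM in *Xbp1* LKO libraries and was not called by edgeR (log2 fold change -1.34, SE 0.38, edgeR adjusted p = 0.0772), but was lower in DESeq2 (adjusted p = 0.00359). In the wider list of urea cycle and amino acid breakdown, 1 higher and 5 lower of 43 genes were called, the rise being that of *Oat* and the falls including *Amdhd1* (-1.27), which acts after *Hal* in histidine breakdown. The number called lower in that list was 1 to 11 when 1 HFS library was left out, 13 in DESeq2 (2 higher) and 6 with library totals (4 higher).

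**Figure D2:**
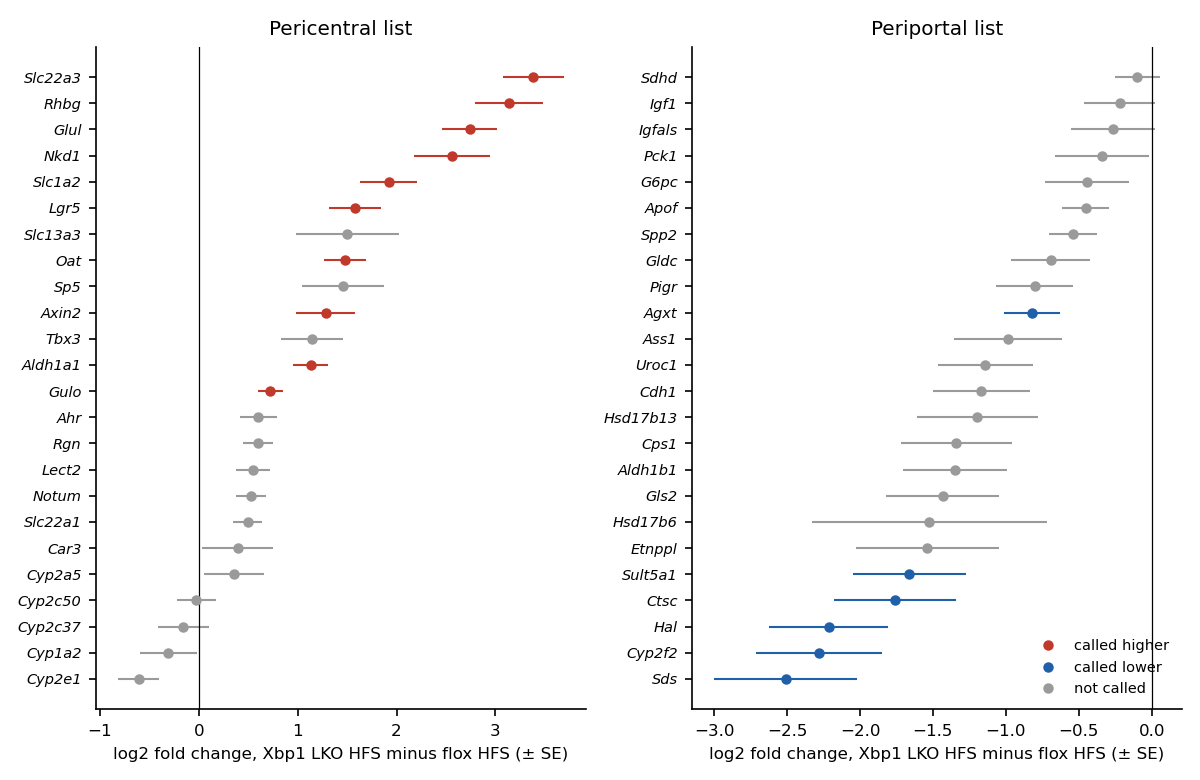
Log2 fold change, *Xbp1* LKO minus *Xbp1* fl/fl on HFS, with its standard error (horizontal axes), for the 24 pericentral genes and 24 of the 25 periportal genes tested, colored by call. Pericentral values run from -0.61 for *Cyp2e1* to 3.38 for *Slc22a3*, and periportal values from -2.51 for *Sds* to -0.10 for *Sdhd* (named for its place), where 2 turn positive under library totals.

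Genes of the secretory pathway, the classical targets of XBP1, were called only in the downward direction in the main fit. Of 40 translocation genes tested, 5 were called lower and 0 higher (median -0.34, or -0.08 with library totals). *Sec61b* (-1.16, adjusted p = 0.00995) and *Sec61a1* (-0.90, adjusted p = 0.0107) encode parts of the channel through which nascent proteins enter the ER, *Spcs2* (-0.95) a signal peptidase subunit, and *Tram1* (-0.92) and *Ssr2* (-0.42, named after its values were seen) proteins that sit beside the channel. Without *Xbp1* LKO library 2, *Sec61a1* missed the threshold (adjusted p = 0.0519). Among 48 N-glycosylation genes, 11 were called lower and 0 higher, with a median of -0.29 (-0.03 with library totals). *Rpn1*, a subunit of the oligosaccharyltransferase that puts glycans on nascent chains, had 155, 138 and 148 CPM in *Xbp1* fl/fl and 78.7, 60.9 and 70 CPM in *Xbp1* LKO libraries. All 3 *Xbp1* LKO values were tightly grouped below every control, and *Rpn1* fell by 1.07 on the log2 scale (SE 0.13, edgeR adjusted p = 0.00226). *Ddost* (-1.0) and *Stt3a* (-0.68) belong to the same enzyme, *Ostc* (-0.76) is an accessory subunit, and *Dpagt1* (-0.61) and *Gmppa* (-0.72) act in the supply of its sugar donors. With library totals 4 translocation genes were called lower and 2 higher, and 7 N-glycosylation genes lower and 4 higher. DESeq2 called 13 translocation genes lower and 0 higher, and 16 N-glycosylation genes lower and 1 higher, the latter *Pmm1*, named after its values were seen. Leaving out 1 HFS library gave 3 to 9 translocation and 4 to 9 N-glycosylation genes called lower. Calls of *Stt3a* and *Ostc* were lost without *Xbp1* fl/fl library 1 or *Xbp1* LKO library 2 or 3, with adjusted p up to 0.0691 and 0.0825, and that of *Ostc* also without *Xbp1* fl/fl library 3.

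Folding factors were called lower or not at all in the main fit. Of 31 ER chaperone genes 3 were called lower and 0 higher (median -0.31, or -0.05 with library totals), and of 23 disulfide isomerases and oxidases 4 lower and 0 higher (median -0.27, or -0.02). With library totals 2 chaperones were called lower and 0 higher, and 3 isomerases and oxidases lower and 2 higher, and DESeq2 called 8 and 6 lower. Leaving out 1 HFS library gave 2 to 5 and 2 to 5 called lower. *P4hb* encodes protein disulfide isomerase, the most abundant enzyme of its kind. It was measured at 1899, 2191 and 2022 CPM in *Xbp1* fl/fl and 1219, 618 and 888 CPM in *Xbp1* LKO libraries. *Xbp1* LKO library 2 was lowest and *Xbp1* LKO library 1 nearest to the controls, without overlap (log2 fold change -1.17, SE 0.21, edgeR adjusted p = 0.0109). *Erp44*, which retains clients in the early secretory pathway, went from 87.6 to 100.4 CPM to 28.3 to 46.5 CPM (log2 fold change -1.34, SE 0.17, edgeR adjusted p = 0.00254). *Sil1* (-0.99), the exchange factor of the chaperone BiP, *Cnpy3* (-1.22), which folds Toll-like receptors, and *Uggt1* (-0.90), which tests glycoproteins for folding, were the chaperones called. *Txndc5* (-0.86) and *Dnajc10* (-0.58), both thioredoxin-domain proteins, were the other isomerases. *Uggt1* and *Dnajc10* kept their calls only in the fit without *Xbp1* LKO library 1, and *Txndc5* only in that fit and the fit without *Xbp1* fl/fl library 2 (adjusted p up to 0.146, 0.187 and 0.109). BiP itself, *Hspa5*, had 1338, 565 and 1079 CPM in *Xbp1* fl/fl and 1059, 844 and 936 CPM in *Xbp1* LKO libraries. Its lowest value was in *Xbp1* fl/fl library 2 and its highest in *Xbp1* fl/fl library 1, so the groups overlapped, and it was not called (log2 fold change -0.07, SE 0.42, edgeR adjusted p = 0.964). *Hyou1*, a large ER chaperone, also overlapped and was not called in the main fit: 401, 122 and 319 CPM against 169, 101 and 116 CPM (log2 fold change -1.13, SE 0.46, edgeR adjusted p = 0.224). Its *Xbp1* fl/fl library 2 lay within the *Xbp1* LKO range and the other controls above it. Unlike that of *Hspa5*, the log2 fold change of *Hyou1* was negative in every alternative (-1.49 to -0.78). EdgeR with no filter called *Hyou1* lower (adjusted p = 2.63e-07). *Dnajb9* (log2 fold change -0.39), *Sdf2l1* (-0.79), *Pdia4* (0.03) and *Pdia6* (-0.53), inducible folding factors all, were not called in the main fit. With no filter, edgeR called *Sdf2l1* lower (adjusted p = 0.000135), and the others were called under no alternative.

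Among 75 genes of COPII and COPI traffic between ER and Golgi, 11 were called lower and 0 higher, with a median of -0.26 that was 0.00 with library totals, where 1 stayed called lower. The leave-out fits called 0 to 12 lower and DESeq2 22. Those of smallest p were *Yif1b* (-0.62), *Preb* (-0.57), *Uso1* (-0.71) and *Cope* (-0.59), a cargo factor, the exchange factor that starts COPII coats, a vesicle tether and a COPI coat subunit. Each lost its call without *Xbp1* LKO library 2 and without at least 1 *Xbp1* fl/fl library. The coat and cargo receptor genes *Sec24d* (-0.58), *Lman1* (-0.43) and *Kdelr2* (-0.34) were not called by edgeR, while DESeq2 called *Sec24d* and *Lman1* lower (adjusted p = 0.0318 and 0.00116). Of 45 genes for ER-associated degradation 4 were called lower and 0 higher, and the median turned from -0.13 to 0.12 with library totals, where 2 were called lower. DESeq2 called 6 lower and the leave-out fits 1 to 4. *Edem1*, a lectin that sends misfolded glycoproteins to disposal, went from 253 to 292 CPM to 146 to 177 CPM (log2 fold change -0.83, SE 0.14, edgeR adjusted p = 0.00796), and the call was kept whichever HFS library was left out. *Os9* (-0.69), *Edem2* (-0.76) and *Ubxn4* (-0.58) were called in 1 of the 6 leave-out fits each. *Herpud1* (-0.36), *Syvn1* (-0.68), *Sel1l* (-0.09) and *Derl1* (-0.12), which form or recruit the degradation complex, were not called in the main fit. With no filter, edgeR called *Syvn1* lower (adjusted p = 0.00229). Among 10 tested sensors that feed these genes edgeR in the main fit and DESeq2 each called 0, and 1 higher and 2 lower had an unadjusted p under 0.05. With library totals 1 sensor was called higher, and leaving out 1 HFS library gave 0 to 1 called lower. IRE1 itself (*Ern1*) had a log2 fold change of 0.09 (edgeR adjusted p = 0.882), PERK (*Eif2ak3*) -0.20 (0.684) and *Atf6* -0.03 (0.943), and the list median of -0.04 became 0.22 with library totals.

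**Figure D3:**
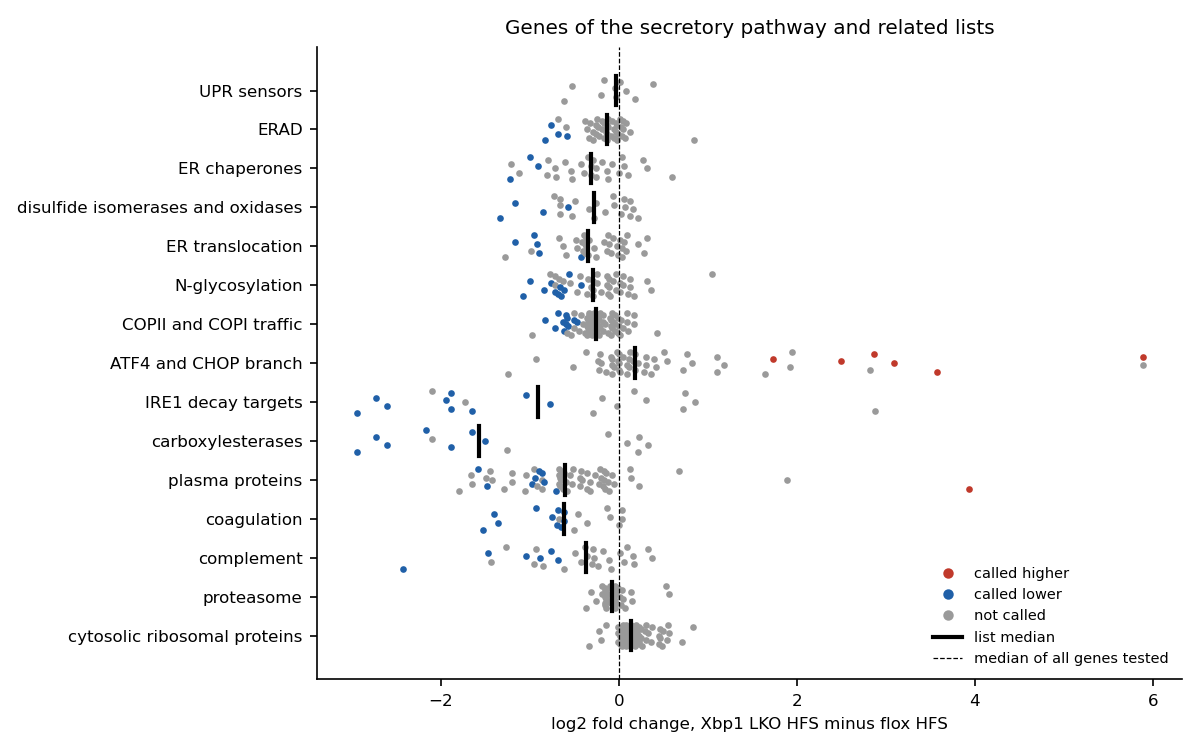
Log2 fold change (horizontal axis) of each gene tested in 15 lists, *Xbp1* LKO minus *Xbp1* fl/fl on HFS, colored by call, with list medians as bars and the median of all genes as a dashed line. The IRE1 decay targets have a median of -0.91 and the carboxylesterases of -1.57. With library totals every median is higher by about the shift of all genes, so that those of the UPR sensors, ER-associated degradation, COPII and COPI traffic and the proteasome become positive.

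Promoters of the secretory genes were searched for letters that XBP1 and ATF6 are known to bind, in RefSeq sequences of build GRCm38.p6 and on both strands. The ER stress response element, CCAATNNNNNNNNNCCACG, was found in 37 (0.113%) of all 32851 promoters in the table, its variant, the ER stress response element II, in 10 (0.0304%), and TGACGTG, the core of the UPR element, in 542 (1.65%). Of 221 secretory genes tested that had a promoter there, 26 (11.8%) held any of them, among the 31 called lower 2 (6.45%). The same shares were 2.87% of all 9934 genes tested with a promoter and 4.09% of the 220 of them called lower. The full element lay before 10 of these genes, *Alg12*, *Calr*, *Canx*, *Creld2*, *Derl3*, *Dnajc3*, *Hsp90b1*, *Hspa5*, *Pdia6* and *Syvn1*. EdgeR called 0 of the 10, with 3 at an unadjusted p under 0.05 and 1 called by DESeq2, and their median log2 fold change was -0.41. *Herpud1* carried the variant and was not called either. TGACGTG occurred before 16 genes, of which *Dhdds* (-0.56, edgeR adjusted p = 0.0203), which makes the dolichol lipid that carries glycans, and *Txndc5* were called lower by edgeR, with 9 of the 16 at an unadjusted p under 0.05 and 6 called by DESeq2. The share of all genes at that unadjusted threshold is not given for the HFS comparison. Such counts, here and elsewhere, are therefore not set against a background. The promoters of *Dhdds* and *Txndc5* are shown as the called secretory genes with a match, with TGACGTG in capitals. That of *Dhdds* spans chr4:134000883-134001132 and that of *Txndc5*, 1 of 3 listed, chr13:38527915-38528164, both on the minus strand.

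Dhdds: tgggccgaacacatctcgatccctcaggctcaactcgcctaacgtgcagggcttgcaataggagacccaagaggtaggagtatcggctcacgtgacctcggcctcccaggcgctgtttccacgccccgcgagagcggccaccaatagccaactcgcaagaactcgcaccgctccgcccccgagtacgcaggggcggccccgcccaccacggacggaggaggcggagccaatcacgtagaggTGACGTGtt

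Txndc5: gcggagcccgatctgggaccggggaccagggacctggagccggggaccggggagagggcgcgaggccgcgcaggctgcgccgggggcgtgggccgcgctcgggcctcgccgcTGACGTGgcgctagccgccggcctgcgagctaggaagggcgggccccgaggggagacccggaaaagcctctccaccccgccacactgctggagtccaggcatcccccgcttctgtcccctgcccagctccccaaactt

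Of 20 reported substrates of IRE1 tested, 9 were called lower and 0 higher, with a median of -0.91 (-0.65 with library totals, where 10 were called lower and 3 higher), and DESeq2 called 11 lower and 0 higher. The study tabled 4 of them for these samples, so their direction here is not independent of its table. *Hgsnat* encodes a lysosomal acetyltransferase of heparan sulfate breakdown. It had 58.6, 65.3 and 63.6 CPM in *Xbp1* fl/fl and 17.6, 11.8 and 19.4 CPM in *Xbp1* LKO libraries. Both groups were tight, *Xbp1* LKO library 2 was lowest, and the transcript fell 3.85-fold (log2 fold change -1.94, SE 0.23, edgeR adjusted p = 0.00226). *Dgat2*, which makes triglyceride from diglyceride, had 871, 849 and 1080.01 CPM in *Xbp1* fl/fl and 262, 196 and 300.2 CPM in *Xbp1* LKO libraries, again without overlap (log2 fold change -1.89, SE 0.23, edgeR adjusted p = 0.00254). *Ppp1r15b*, the constitutive partner of the eIF2α phosphatase, went from 133 to 161 to 81.8 to 88.2 CPM (log2 fold change -0.78, SE 0.12, edgeR adjusted p = 0.00537). *Bloc1s1*, the substrate most often used as a readout, rested on 20 to 29 counts in *Xbp1* fl/fl and 13, 1 and 13 counts in *Xbp1* LKO libraries and was not called by edgeR in the main fit (log2 fold change -1.73, SE 0.58, edgeR adjusted p = 0.132). DESeq2 called it lower (-1.75, DESeq2 adjusted p = 0.0427), as did edgeR with no filter (adjusted p = 0.00994). The study's table gives *Bloc1s1* on HFS the same direction but a far smaller adjusted p than any fit here. The cause of that gap was not tested. The list shares 4 called genes with the carboxylesterases, ER-lumen enzymes that cleave esters, of which 7 of 14 tested were called lower and 0 higher (median -1.57). *Ces1e* (-2.95), *Ces1c* (-2.72), *Ces1g* (-2.61) and *Ces2a* (-1.65) kept their calls in all 6 leave-out fits. *Ces1c* was the most abundant of them at 2654, 2078 and 2849 CPM in *Xbp1* fl/fl and 322, 161 and 664 CPM in *Xbp1* LKO libraries. *Ces1d* had a log2 fold change of -2.10 (edgeR adjusted p = 0.0511) and *Ces3a* of -0.12 (0.803), neither called by edgeR and the former called lower by DESeq2 (adjusted p = 0.00666). Members of the Ces1 cluster are close paralogs, so how reads were shared among them is uncertain.

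The branch of ATF4 and CHOP, which raises amino acid supply and stress factors when eIF2α is phosphorylated, had calls in the other direction. Of 55 genes tested 6 were called higher and 0 lower, with a median of 0.18 (0.44 with library totals). *Nupr1*, a small stress-induced chromatin protein, had 0.143, 0.153 and 0.196 CPM in *Xbp1* fl/fl and 3.79, 4.87 and 21.4 CPM in *Xbp1* LKO libraries. The *Xbp1* fl/fl values rest on 3, 3 and 4 counts, and *Xbp1* LKO library 3 stood well above the other 2 *Xbp1* LKO libraries (log2 fold change 5.89, SE 0.97, edgeR adjusted p = 0.00785). *Psat1*, an enzyme of serine synthesis, showed the same order, with 0.429, 0.356 and 0.490 CPM against 2.12, 3.64 and 9.66 CPM (log2 fold change 3.58, SE 0.64, edgeR adjusted p = 0.0114). *Asns*, asparagine synthetase, had 5.57, 14.2 and 1.37 CPM against 23.6, 43.7 and 86.4 CPM, again highest in *Xbp1* LKO library 3 (log2 fold change 2.87, SE 0.65, edgeR adjusted p = 0.0334). *Atf3* (3.09), a factor induced by stress, *Ddit3* (2.50), which encodes CHOP, and *Mthfd2* (1.73, named after its values were seen), of the mitochondrial folate pathway, were the other calls. Only *Nupr1* kept its call in all 6 leave-out fits. *Psat1* lost it without any 1 *Xbp1* fl/fl library (adjusted p up to 0.0534), *Asns* without *Xbp1* fl/fl library 1 or 3 or *Xbp1* LKO library 2 or 3 (up to 0.131), *Ddit3* in all fits but that without *Xbp1* LKO library 1 (up to 0.168) and *Atf3* in all but that without *Xbp1* LKO library 2 (up to 0.110). Over these fits the number called higher ran from 1 to 7. With library totals 18 were called higher, and DESeq2 called 10 higher and 2 lower. *Atf4* (log2 fold change 0.18), *Trib3* (1.18) and the death receptor *Tnfrsf10b* (1.92, edgeR adjusted p = 0.0511) were not called by edgeR in the main fit, and DESeq2 called *Tnfrsf10b* higher (adjusted p = 0.0286). EdgeR called *Trib3* higher with no filter (adjusted p = 3.39e-10) and *Atf4* higher with library totals (adjusted p = 0.0338). *Trib3* had 17, 15.7 and 13 CPM in *Xbp1* fl/fl and 22, 26.7 and 55.3 CPM in *Xbp1* LKO libraries, again highest in *Xbp1* LKO library 3. Among 32 secreted signals of hepatocytes 2 (6.25%, against 1.92% of all genes tested) were called higher and 0 lower (median 0.16, or 0.42 with library totals). They were *Inhbe* (1.01, adjusted p = 0.00631) and *Inhbc* (0.60, 0.0177), activin subunits of the liver. *Inhbe* kept its call in all 6 leave-out fits, and *Inhbc* in 2, losing it without any 1 *Xbp1* fl/fl library or *Xbp1* LKO library 2 (adjusted p up to 0.0758). Of these signals 8 were called higher with library totals and 6 by DESeq2. *Fgf21*, a starvation hormone, was not called by edgeR (2.82, adjusted p = 0.0511) but was called higher by DESeq2 (adjusted p = 0.000567).

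Lists of secretory cargo had negative medians. Of 64 plasma protein genes 8 were called lower and 1 higher, with a median of -0.60 (-0.35 with library totals). Leaving out 1 HFS library gave 1 to 9 called lower, library totals 7 lower and 3 higher, and DESeq2 23 lower and 1 higher. The exception, *Serpina7*, encodes thyroxine-binding globulin. It had 45.6, 73.8 and 43.9 CPM in *Xbp1* fl/fl and 599, 953 and 939 CPM in *Xbp1* LKO libraries, with every *Xbp1* LKO value far above every control (log2 fold change 3.93, SE 0.56, edgeR adjusted p = 0.00367). Its call, like that of *Azgp1* (-1.58, edgeR adjusted p = 0.00276), a zinc-binding glycoprotein tied to lipid mobilization, was kept in all 6 leave-out fits. *Itih1* (-0.86), an inter-alpha-trypsin inhibitor chain, and *Cpb2* (-0.98), which slows clot lysis, lost theirs without *Xbp1* LKO library 2 (adjusted p = 0.0659 and 0.0738). *Alb* (-0.86, adjusted p = 0.178), *Ttr* (-0.36, 0.504) and *Fgb* (-0.95, 0.175), the genes of albumin, transthyretin and fibrinogen β, were not called by edgeR, while DESeq2 called *Alb* and *Fgb* lower (adjusted p = 0.0411 and 0.0450). Of 19 coagulation genes 10 were called lower and 0 higher (52.6%, against 2.16% of all genes called lower), with a median of -0.62 (-0.36 with library totals, where 5 were called). Over the leave-out fits 3 to 8 were called lower, and 12 in DESeq2. *Proc*, the precursor of the anticoagulant protein C, had 713, 646 and 719 CPM in *Xbp1* fl/fl and 250.02, 178 and 294 CPM in *Xbp1* LKO libraries. *Xbp1* LKO library 2 was again lowest and no library crossed (log2 fold change -1.53, SE 0.20, edgeR adjusted p = 0.00254). *F7*, the factor that starts clotting with tissue factor, went from 127 to 163 to 47.4 to 59.2 CPM (log2 fold change -1.40, SE 0.18, edgeR adjusted p = 0.00254) and *Hgfac*, the activator of hepatocyte growth factor, from 266 to 289 to 97.4 to 123 CPM (log2 fold change -1.35, SE 0.22, edgeR adjusted p = 0.00783). *F2* (-0.93), prothrombin, and *Mst1* (-0.75), a growth factor relative, fell but were not called without *Xbp1* LKO library 2 (adjusted p = 0.0592 and 0.0559). *F11* was not called by edgeR (-0.68, adjusted p = 0.0551) but was by DESeq2 (adjusted p = 0.00805). Of 30 complement genes 6 were called lower and 0 higher (median -0.37, or -0.11 with library totals), with 3 to 6 called lower when 1 HFS library was left out and 11 in DESeq2. Besides *Hc*, *Clu* and *Masp2* they include *C8a* (-1.04), a chain of the membrane attack complex, which was not called without *Xbp1* LKO library 2 or 3 (adjusted p up to 0.0908). In the main fit *C3* (-0.85, edgeR adjusted p = 0.141) and *C9* (-0.93, 0.0536) were not called. DESeq2 called both lower (adjusted p = 0.0301 and 0.00274), as did edgeR with no filter. *C9* was also called lower without *Xbp1* LKO library 1.

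Calls among lipid genes depended on the tool and the scaling. Of 28 lipogenesis genes 2 (7.14%) were called higher and 1 (3.57%) lower, against 1.92% and 2.16% of all genes tested. The median was -0.36, or -0.10 with library totals, where 5 were called higher and 1 lower. DESeq2 called 2 higher and 8 lower, 4 higher and 14 lower had an unadjusted p under 0.05, and leaving out 1 HFS library gave 0 to 4 called lower. The share of all genes at that unadjusted threshold is not given, so the 4 and 14 are not set against a background. The edgeR fall was in *Scd1*, the desaturase that makes oleate, which was among the 3 most abundant transcripts of each *Xbp1* fl/fl library. It had 21769.5, 16638 and 18424 CPM in *Xbp1* fl/fl and 6634, 3719 and 2869.99 CPM in *Xbp1* LKO libraries. Its loss was the largest fall in mean CPM of any called gene (log2 fold change -2.10, SE 0.46, edgeR adjusted p = 0.0296), yet the call held in only 1 of 6 leave-out fits, that without *Xbp1* LKO library 1, with adjusted p up to 0.135 in the others. *Hacd2*, a dehydratase of fatty acid elongation, rose by a small and even amount, from 31.8 to 32.7 to 50.1 to 51.8 CPM (log2 fold change 0.66, SE 0.09, edgeR adjusted p = 0.00322), and *Elovl1* (0.51), an elongase, was called in none of the leave-out fits. *Fasn* (-0.67, adjusted p = 0.133), *Srebf1* (-0.99, 0.239) and *Mlxipl* (-0.02, 0.974), a synthase and 2 regulators of lipogenesis, were not called by edgeR in the main fit, and DESeq2 called *Fasn* lower (adjusted p = 0.0465). With no filter, edgeR called *Fasn* and *Srebf1* lower (adjusted p = 0.00324 and 1.1e-05). In cholesterol synthesis 1 of 27 genes was called (3.70% lower, against 2.16% of all genes tested), *Pmvk* (-0.84), a mevalonate pathway kinase, in no leave-out fit. The list median was -0.35 (-0.11 with library totals), and DESeq2 called 5 lower and 0 higher. Triglyceride and droplet genes gave 1 call higher, *Gpd1* (0.91), which makes glycerol phosphate, and 1 lower, *Dgat2*, of 31 (median 0.08). Each call was 3.23% of the list, near the 1.92% higher and 2.16% lower of all genes tested. Without *Xbp1* fl/fl library 1 or *Xbp1* LKO library 2 or 3, *Gpd1* was not called (adjusted p up to 0.0737). Phospholipid synthesis gave 0 of 19 in edgeR and 1 in DESeq2, with 4 higher and 2 lower at an unadjusted p under 0.05 (median 0.08). *Pparg*, a nuclear receptor of fat storage, was the call among 33 hepatocyte transcription factors (3.03% higher, against 1.92% of all genes tested). It rose from 7.69 to 12.6 to 17.4 to 35.9 CPM (log2 fold change 1.35, SE 0.25, edgeR adjusted p = 0.0138), a call lost without *Xbp1* fl/fl library 1 or 2 or *Xbp1* LKO library 2. In fatty acid oxidation *Cyp4a31* (1.68) and *Acot2* (1.41) were called higher and 0 lower of 45 (median 0.18, or 0.44 with library totals), the former in 3 and the latter in 0 of the leave-out fits. These calls made up 4.44% of that list, against 1.92% of all genes called higher. With library totals 15 fatty acid oxidation, 6 triglyceride and droplet and 5 phospholipid synthesis genes were called higher.

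Of 30 genes for lipoproteins and their uptake 5 were called lower and 0 higher (median -0.29, or -0.03 with library totals, where 4 were called lower and 2 higher). DESeq2 called 6 lower and 1 higher, and leaving out 1 HFS library gave 1 to 4 called lower. *Apoa1*, the main protein of high-density lipoprotein, had 11062, 11437 and 11111 CPM in *Xbp1* fl/fl and 5765, 2803 and 3696 CPM in *Xbp1* LKO libraries. The controls lay within a narrow band and *Xbp1* LKO library 1 kept the most (log2 fold change -1.45, SE 0.28, edgeR adjusted p = 0.0161), and the call was lost without *Xbp1* fl/fl library 1 or 3 or *Xbp1* LKO library 2 or 3 (adjusted p up to 0.0755). *Apon* (-1.39, adjusted p = 0.00651), another apolipoprotein, kept its call throughout. *Lrp1* (-1.21), a remnant receptor, and *Lipc* (-0.82), hepatic lipase, did not, and *Scarb1* (-0.80), the receptor for high-density lipoprotein, was named after its values were seen. Without *Xbp1* fl/fl library 3 or *Xbp1* LKO library 2 or 3, neither *Lrp1* nor *Lipc* was called (adjusted p up to 0.0769 and 0.115), and *Lipc* was also lost without *Xbp1* fl/fl library 1. *Apob* (-0.30), *Mttp* (0.10), *Lpl* (-0.02) and *Cd36* (0.98), for assembly of large lipoproteins, their lipolysis and fatty acid uptake, were not called in the main fit. With no filter, edgeR called *Cd36* higher (adjusted p = 3.53e-07). Bile acid genes gave 2 lower (5.56%, against 2.16% of all genes tested) and 0 higher of 36. They were *Slc27a5* (-1.02), which conjugates bile acids to coenzyme A, and *Abcg8* (-1.11), a sterol exporter. Both calls were lost without *Xbp1* fl/fl library 3 or *Xbp1* LKO library 2 or 3, and that of *Abcg8* also without *Xbp1* LKO library 1. The list median changed sign, from -0.06 to 0.19, with library totals, where 6 bile acid genes were called higher and 2 lower.

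Of 49 P450 genes and reductases 4 (8.16%) were called higher and 2 (4.08%) lower, against 1.92% and 2.16% of all genes tested, and the median was -0.16 (0.11 with library totals). *Cyp2a4*, a steroid hydroxylase more abundant in female than male liver, had 1.10, 1.17 and 1.47 CPM in *Xbp1* fl/fl and 18.8, 16.8 and 9.89 CPM in *Xbp1* LKO libraries. *Xbp1* LKO library 3 was the lowest of its group and still far above the controls (log2 fold change 3.60, SE 0.40, edgeR adjusted p = 0.00163). *Cyp2a4* and *Cyp2a5* are nearly identical in sequence, so the division of reads between them is uncertain. *Cyp2c38*, a retinoid and fatty acid oxidase, rose from 16.6 to 32.1 to 75.8 to 102 CPM (log2 fold change 1.97, SE 0.34, edgeR adjusted p = 0.00922), and its relatives *Cyp2c39* (1.98) and *Cyp2d12* (1.54) rose too, though they kept the call in 2 and 1 of 6 leave-out fits. *Cyp2b10*, the classical target of the receptor CAR, fell from 7.34 to 23.3 to 0.892 to 4.24 CPM (log2 fold change -2.76, SE 0.56, edgeR adjusted p = 0.0206), with no call without *Xbp1* fl/fl library 2 or 3 or *Xbp1* LKO library 2 or 3 (adjusted p up to 0.0822). *Cyp2f2* was the other fall. Among 43 conjugation genes 3 (6.98%) were called higher and 1 (2.33%) lower (*Sult5a1*), with a median of -0.00 (0.25 with library totals, where 10 were called higher). *Ugt1a9* (2.36, edgeR adjusted p = 0.00226), a glucuronosyltransferase whose locus shares exons with its neighbors, *Gstm3* (2.45, 0.00270), a glutathione transferase with close paralogs, and *Nat8* (1.27, 0.00254), which acetylates cysteine conjugates, kept their calls in all 6 leave-out fits. Shared exons and paralogs leave the assignment of *Ugt1a9* and *Gstm3* reads uncertain. Of 29 genes driven by NRF2 3 were called higher and 0 lower (median 0.48, or 0.74 with library totals): *Gstm3*, the carbonyl reductase gene *Cbr3* and *Nfe2l2*, which encodes NRF2. With library totals 16 NRF2 targets were called higher and in DESeq2 9, and leaving out 1 HFS library gave 1 to 6. *Cbr3* had 0.143, 0.255 and 0.0490 CPM in *Xbp1* fl/fl and 1.34, 4.16 and 12.9 CPM in *Xbp1* LKO libraries, from 3, 5 and 1 counts against 33, 112 and 337, highest in *Xbp1* LKO library 3 as *Nupr1* was (log2 fold change 5.33, SE 0.92, edgeR adjusted p = 0.00940). Its call was lost without *Xbp1* fl/fl library 3 (adjusted p = 0.0511). *Nfe2l2* rose by a modest 0.59 on the log2 scale, and its call was lost without any 1 *Xbp1* fl/fl library or *Xbp1* LKO library 2.

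In lists of stress, death, growth and immunity the number of calls varied with the processing. Of 41 apoptosis genes 2 (4.88%, against 1.92% of all genes tested) were called higher and 0 lower (median 0.11). They were *Bax* (0.71) and *Bcl2l11* (0.78), both of which promote death through mitochondria. *Bax* and the kinase gene *Plk2* (1.39) were the 2 called higher among 26 p53 targets (7.69%, against 1.92%), with 0 lower and a median of 0.53 (0.79 with library totals). *Bax* was called in 0, *Bcl2l11* in 2 and *Plk2* in 3 of the 6 leave-out fits. Genes induced within minutes by stress or cell isolation gave 3 higher (10.7%, against 1.92%) and 0 lower of 28 (median 0.03): *Atf3*, *Gadd45a* (1.31), a growth arrest gene, and *Klf6*. *Klf6*, a transcription factor, went from 2.95 to 4.26 to 7.59 to 9.90 CPM (log2 fold change 1.22, SE 0.18, edgeR adjusted p = 0.00465) and was called in every leave-out fit, *Gadd45a* in 3 of 6. In NF-κB and innate signaling, 1 of 40 was called higher (2.5%, near the 1.92% of all genes tested) and 2 lower (5%, against 2.16%). DESeq2 called 2 higher and 4 lower in that list, and library totals gave 4 higher and 1 lower. Leaving out 1 HFS library gave 1 to 2 called higher and 0 to 3 lower. *Relb*, an NF-κB subunit, rose from 7 to 10 counts a library to 41 to 57 (log2 fold change 2.25, SE 0.32, edgeR adjusted p = 0.00367). The kinase gene *Ikbke* (-1.40, adjusted p = 0.0105) and the interleukin-1 receptor chain gene *Il1rap* (-0.72, 0.0313) fell, the former with no call without *Xbp1* LKO library 3 (adjusted p = 0.0502) and the latter called only without *Xbp1* LKO library 1. *Usp18* (1.41), which curbs interferon signaling, was the 1 call among 49 interferon-stimulated genes (2.04% higher, near the 1.92% of all genes tested, median 0.04) and held in 1 of 6 leave-out fits. MHC class I presentation gave 5 lower and 0 higher of 21 (median -0.28, or -0.02 with library totals): the peptide-loading gene *Tapbp* (-1.04) and the class I chain genes *H2-Q7* (-1.27), *H2-T23* (-0.96), *H2-T22* (-0.71) and *H2-K1* (-0.69), which are similar enough that the division of their reads is uncertain. All 5 lost the call without *Xbp1* LKO library 2, and the number called lower ran from 0 to 8 over the leave-out fits and was 4 with library totals and 8 in DESeq2. Of 35 replication and mitosis genes 2 (5.71%, against 1.92% of all genes tested) were called higher and 0 lower (median 0.56, or 0.81 with library totals). The proliferation marker *Mki67* had 0.572, 0.865 and 0.392 CPM in *Xbp1* fl/fl and 7.37, 6.66 and 2.68 CPM in *Xbp1* LKO libraries, with *Xbp1* LKO library 3 the lowest of its group (log2 fold change 3.18, SE 0.78, edgeR adjusted p = 0.0456). Cyclin A2, *Ccna2*, had 0.238, 0.204 and 0.441 and 2.44, 2.31 and 0.767 CPM in the same order of libraries (log2 fold change 2.62, SE 0.62, edgeR adjusted p = 0.0399). *Mki67* was called in 0 and *Ccna2* in 1 of the 6 leave-out fits, that without *Xbp1* LKO library 3. With library totals the apoptosis, p53, immediate early, interferon-stimulated and replication and mitosis (cell cycle) lists had 9, 13, 4, 8 and 9 genes called higher, and in DESeq2 3, 8, 3, 3 and 7. DESeq2 called 2, 0, 1, 1 and 0 genes of these lists lower. When 1 HFS library was left out, these lists had 0 to 1, 0 to 2, 1 to 3, 0 to 1 and 0 to 2 called higher.

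Some housekeeping lists had calls only under other choices. None of 73 cytosolic ribosomal protein genes (median 0.13), 77 mitochondrial ribosomal protein genes (-0.02), 38 proteasome genes (-0.07), 23 heat shock genes (0.05) or 18 clock genes (-0.12) was called by edgeR, and with library totals these medians were 0.39, 0.24, 0.19, 0.30 and 0.13, with 3, 5, 1, 5 and 0 genes then called higher and 0 lower. At an unadjusted p under 0.05 stood 4, 4, 3, 0 and 0 genes of these lists, and DESeq2 called 1 of them, a mitochondrial ribosomal protein gene. The deposited tables list 37 mitochondrial genes and all had a count of 0, so the mitochondrial share could not be measured. Of 80 nuclear genes of the respiratory chain 2 were called lower (2.5%, near the 2.16% of all genes tested) and 0 higher, *Ndufa9* (-1.04, edgeR adjusted p = 0.00334), of complex I, and *Atp5d* (-0.54, 0.0498), of ATP synthase. *Ndufa9* was called in every leave-out fit and *Atp5d* in none. *Lamp1*, the abundant membrane glycoprotein of lysosomes, had 626, 671 and 695 CPM in *Xbp1* fl/fl and 254, 170.2 and 290.1 CPM in *Xbp1* LKO libraries. No library crossed (log2 fold change -1.48, SE 0.19, edgeR adjusted p = 0.00254), and every leave-out fit called it. Of 36 autophagy and lysosome genes it was called lower with the protease gene *Ctsb* (-0.68), and *Atg12* (0.56), of autophagosome formation, was called higher, each of these 2 in 1 of 6 leave-out fits. The calls made up 5.56% lower and 2.78% higher of that list, against 2.16% and 1.92% of all genes tested. Among 20 iron genes *Tmprss6*, the protease that restrains hepcidin, fell (log2 fold change -1.25, SE 0.18, edgeR adjusted p = 0.00367) and *Id1* (1.76), a target of the BMP signal, rose, the latter called in 1 leave-out fit. Each call was 5% of that list, against 2.16% lower and 1.92% higher of all genes tested. The fructose transporter gene *Slc2a5* (-0.93) was the call among 36 genes of glucose and insulin (2.78% lower, near the 2.16% of all genes tested), in no leave-out fit. Growth hormone and sex-biased genes gave 1 higher (*Cyp2a4*, 3.33%, against 1.92% of all genes tested) and 2 lower (6.67%, against 2.16%) of 30. The falls were in *Selenbp2* (-2.49) and *Mup12* (-1.73), male-biased genes each called in 1 leave-out fit. Reads of *Mup12* cannot be told with certainty from those of the other major urinary protein genes. Of 10 imprinted genes 3 were called higher and 1 lower. *Meg3*, a noncoding RNA of the locus that also holds *Rian*, had 0.524, 0.458 and 0.196 CPM in *Xbp1* fl/fl and 13.4, 2.79 and 21.9 CPM in *Xbp1* LKO libraries. *Xbp1* LKO library 2 was the lowest of its group, at a fraction of the other 2 (log2 fold change 4.99, SE 0.72, edgeR adjusted p = 0.00367). *H19* (3.14), a fetal noncoding RNA, rested on 0, 1 and 6 counts in *Xbp1* fl/fl and 25, 32 and 25 in *Xbp1* LKO libraries. *Igf2r* (-0.81, adjusted p = 0.00539), the receptor that carries enzymes to lysosomes, was called lower in every leave-out fit, and *H19* higher in 1 of them.

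Rises outside the lists included genes almost absent from *Xbp1* fl/fl hepatocytes. *Tuba8*, an alpha-tubulin of narrow expression, had 0.191, 0.509 and 0 CPM in *Xbp1* fl/fl and 5.58, 9.71 and 14 CPM in *Xbp1* LKO libraries (log2 fold change 5.37, SE 0.65, edgeR adjusted p = 0.00253), and *Cav1*, the scaffold of caveolae, 1.48, 4.94 and 1.18 against 34.6, 94.7 and 36.5 CPM, with *Xbp1* LKO library 2 highest (log2 fold change 4.46, SE 0.56, edgeR adjusted p = 0.00254). *Vmn2r3*, a vomeronasal receptor gene, was at 0 in all *Xbp1* fl/fl libraries and, against a floor of 3 counts over the group, at least 111-fold higher in *Xbp1* LKO libraries (edgeR adjusted p = 0.0103). *Arhgef2*, an exchange factor for RhoA on microtubules, rose by 3.62 on the log2 scale (adjusted p = 0.0237), a call kept only without *Xbp1* LKO library 1. *Col12a1*, a collagen that decorates fibrils, rose from 2.14 to 2.65 to 9.55 to 13.3 CPM (log2 fold change 2.19, SE 0.23, edgeR adjusted p = 0.00163).

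Among the falls of smallest p was that of *Atrnl1*, an attractin-like membrane protein, with 38.2, 40.8 and 40.5 CPM in *Xbp1* fl/fl and 12.3, 11.7 and 15.6 CPM in *Xbp1* LKO libraries, a narrow band on each side (log2 fold change -1.59, SE 0.14, edgeR adjusted p = 0.000866). *Abca2*, a lipid transporter (log2 fold change -1.87, SE 0.18, edgeR adjusted p = 0.00104), *Sidt2*, a membrane protein that takes up RNA (log2 fold change -1.24, SE 0.13, edgeR adjusted p = 0.00163), and *Plbd2*, a hydrolase (log2 fold change -1.65, SE 0.18, edgeR adjusted p = 0.00163), fell as well. *St3gal3* adds sialic acid to glycans in the Golgi and went from 90.9 to 119 to 30.5 to 42.6 CPM (log2 fold change -1.48, SE 0.16, edgeR adjusted p = 0.00163). *Tmem238*, a small membrane protein, had 8.43, 9.01 and 10.4 CPM in *Xbp1* fl/fl and 1.14, 0.781 and 1.80 CPM in *Xbp1* LKO libraries (log2 fold change -2.90, SE 0.28, edgeR adjusted p = 0.00104), and *Adam11*, a membrane protein without protease activity, 54.5, 95 and 65 and 9.21, 14.3 and 13.2 CPM (log2 fold change -2.55, SE 0.34, edgeR adjusted p = 0.00325). These 7 calls were kept in all 6 leave-out fits, as were those of *Tuba8*, *Cav1*, *Vmn2r3* and *Col12a1*. *Cnmd* (-2.57), a secreted inhibitor of vessel growth, lost its call without *Xbp1* fl/fl library 1 or 3 or *Xbp1* LKO library 2 or 3 (adjusted p up to 0.0691). By amount, the fibronectin gene *Fn1* (2642, 3639 and 3084 against 1573, 1423 and 1154 CPM, log2 fold change -1.17, SE 0.24, edgeR adjusted p = 0.0208) and the protease inhibitor gene *Pzp* (8004, 8979.9 and 7431 against 5735, 4749 and 4523 CPM, log2 fold change -0.70, SE 0.16, edgeR adjusted p = 0.0301) were among the 5 largest falls, with *Scd1*, *Apoa1* and *Ces1c*. Both lost the call without *Xbp1* fl/fl library 2 or 3 or *Xbp1* LKO library 2 or 3, and *Pzp* also without *Xbp1* fl/fl library 1.

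Whether the genotype difference depended on the diet was tested with the chow-fed libraries, which have their own controls. No gene passed the edgeR interaction test after adjustment (0 of 13303), although 816 (6.13%) had an unadjusted p under 0.05 and DESeq2 called 31. Called higher on both diets were 94 genes, 36.7% of the 256 on HFS and 40.9% of the 230 on chow (1.73% of all genes tested), and called lower on both 182, 63.4% of the 287 on HFS and 45.3% of the 402 on chow (3.02%). Counted by sign alone, 234 of the 256 and 283 of the 287 had the same direction on chow, with median log2 fold changes of 0.96 and -0.88. Agreement of sign over all genes tested is not given, so these counts are not set against a background. *Tent5a*, which lengthens poly(A) tails of secreted protein transcripts, had the smallest interaction p. Its log2 fold change was -0.27 on HFS and -2.52 on chow (edgeR interaction adjusted p = 0.0848). *Cyp2a4* had 3.60 on HFS and 0.73 on chow (edgeR interaction adjusted p = 0.603), and the cell cycle genes *Mki67* and *Ccna2* had 3.18 and 2.62 on HFS but -0.81 and -0.52 on chow (edgeR interaction adjusted p = 0.659 for both). None of these differences between diets passed the adjusted test. By list, the median log2 fold change on chow was 1.01 for pericentral genes (15 called higher) and -1.40 for periportal genes (13 lower). It was -1.61 for IRE1 decay targets (10 lower) and -0.26 for translocation genes (12 lower), the same directions as on HFS. The replication and mitosis list went the other way, at -0.33 on chow with 0 called.

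Markers of the cells that a hepatocyte preparation can hold were summed for each HFS library. The 20 hepatocyte markers, led by *Alb*, summed to 152387, 147166 and 165121 CPM in the *Xbp1* fl/fl libraries and 116599, 83501 and 91241 CPM in the *Xbp1* LKO libraries. All 20 were tested, and *Apoa1* and *F2* were called lower by edgeR, with 7 lower and 1 higher in DESeq2, so the libraries carry the labelled cell type in both groups and at a lower summed level in *Xbp1* LKO hepatocytes. The 24 macrophage markers, with *Cd5l* the most abundant, summed to 76.9, 57 and 52.3 CPM in the *Xbp1* fl/fl libraries and 76.4, 86.7 and 133 CPM in the *Xbp1* LKO libraries. The sums overlapped, and of 20 tested all had a positive log2 fold change (median 0.68), 1 had an unadjusted p under 0.05, and edgeR and DESeq2 each called 0. The 23 endothelial markers, led by *Stab2*, summed to 356, 199.9 and 305 CPM in the *Xbp1* fl/fl libraries and 299, 175 and 167 CPM in the *Xbp1* LKO libraries, overlapping, with 0 of 23 called by either tool, 0 at an unadjusted p under 0.05 and a median of -0.39. Stellate markers, led by *Ecm1*, summed to 79.4, 51.5 and 45.9 CPM in the *Xbp1* fl/fl libraries and 108, 63.7 and 50.2 CPM in the *Xbp1* LKO libraries, overlapping, with 0 of 17 tested called by either tool, 1 at an unadjusted p under 0.05 and a median of 0.38. Cholangiocyte markers summed to 46.9, 53.4 and 58.5 CPM in the *Xbp1* fl/fl libraries and 45.6, 61.8 and 50.6 CPM in the *Xbp1* LKO libraries. These sums overlapped, while the genes tested had a median of 0.73, with 5 higher and 2 lower at an unadjusted p under 0.05. That median ran from -0.11 to 0.91 when 1 HFS library was left out. Of 10 tested 2 were called higher and 1 lower: *Ddr1* (3.05), a collagen receptor, *Anxa13*, an annexin at 0 in *Xbp1* fl/fl libraries and at least 17.1-fold higher against a floor of 3 counts over the group, and *Wfdc2* (-2.09), a secreted protease inhibitor. Each of these 3 calls was lost without *Xbp1* LKO library 2 or 3, and without 1 or more of the *Xbp1* fl/fl libraries. The defining markers *Krt19* and *Krt7* had 0 to 4 counts in any HFS library. B cell markers summed to 3.14, 6.01 and 1.47 CPM in the *Xbp1* fl/fl libraries and 11.8, 25.8 and 49.6 CPM in the *Xbp1* LKO libraries, with *Ly6d* the most abundant over the HFS libraries at 0.143, 2.39 and 0.392 and 9.0, 21 and 39.6 CPM, the 1 called of 4 tested (log2 fold change 4.59, SE 1.01, edgeR adjusted p = 0.0301), while *Cd79a* had at most 1 count. Without *Xbp1* fl/fl library 1 or 3 or *Xbp1* LKO library 2 or 3, *Ly6d* was not called (adjusted p up to 0.118). Neutrophil markers summed to 0.333, 3.67 and 1.57 CPM in the *Xbp1* fl/fl libraries and 1.83, 7.55 and 8.28 CPM in the *Xbp1* LKO libraries, with *Ngp* the most abundant, *Mmp8* at 0 and 0 of 6 called by either tool, 2 at an unadjusted p under 0.05 (median 1.84). T and NK cell markers reached no more than 4.20 CPM, led by *Cd4*, the 1 tested and not called. Erythrocyte markers were almost all *Alas2*, which hepatocytes also express, at 139, 119 and 142 and 181, 143 and 160.3 CPM, with *Epb42* at 0 and 0 of 1 called. Of the 7 mesothelial markers none passed the filter, *Krt19* was the most abundant and *Msln*, *Upk1b* and *Wt1* were at 0. The part of these markers in the results was not tested.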

How the data were processed

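Counts per Ensembl gene were used as the authors deposited them, as whole numbers without normalization. Sources differ on how they were made: the article names kallisto and tximport, the processing notes cutadapt 1.13, STAR, HTSeq 0.6.1p1 and DESeq2 on mm10. The library kit is for stranded mRNA in the article and for total RNA in the labels, and the tables do not settle either point. GENCODE M21 gave symbols for 54165 of the 54232 identifiers in each table. CPM, TMM factors and tests came from edgeR 4.0.16 with limma 3.58.1 (R 4.3.3): filterByExpr at a minimum count of 10 kept 13303 genes, a quasi-likelihood fit covered the 4 groups of 11 libraries, and p was adjusted by Benjamini-Hochberg and held to a threshold of 0.05. The standard error comes from the coefficient and its F statistic. The code was tested on simulated data. The comparison, its 47 pathway lists and 10 marker lists were chosen with earlier results of these data known, and no list was tested as a set. Genes named are *Xbp1*, fixed anchors of each list and up to 4 called members in each direction by p, the 12 largest rises and falls among called genes without overlap and with at least 5 CPM in the higher group, the 6 smallest p in each direction, the 5 largest changes in mean CPM and the 5 smallest interaction p, and others where said. Some genes that meet this rule, or lead a marker list, are withheld for evaluation and are not reported here. Alternatives were RLE size factors, library totals, no filter, a filter at 1 CPM, DESeq2 1.42.0, only the HFS libraries, a replicate block, a minimum fold of 1.5 and each HFS library left out. Between libraries of the same HFS group the chi-square per degree of freedom was 27.9 to 92.0, far over counting error, so none was deposited again under another name and no counting intervals are given. Same-numbered libraries of the 2 HFS groups came from different animals, and their deviations from the group means had correlations of -0.157 to 0.231, so no pairing was used.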

Additional observations from a re-analysis of the deposited data

Results flagged for a closer look

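For 3 genes chosen for a small interaction p, every *Xbp1* LKO library lay above every *Xbp1* fl/fl library on 1 diet and below it on the other. Choosing genes by interaction p favors such an order, so the pattern is no separate support. *Ginm1*, a glycoprotein of membranes, had a log2 fold change of -0.717 on HFS and 0.20 on chow (edgeR interaction adjusted p = 0.491). For *Dirc2*, a lysosomal transporter, the values were -0.214 and 0.51 (adjusted p = 0.603). *Cars*, a cysteine tRNA ligase, had 0.312 on HFS and -0.38 on chow (adjusted p = 0.603). None of the 3 differences passed the adjusted test. Among all 13303 genes tested, 115 had groups in opposite order on the 2 diets. The number that random order would give was not computed. Of the 115, 2 were called on HFS, *Ginm1* and *Sh3bgrl* (0.47), the latter named after its values were seen.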

How the results depend on the processing

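No called gene named here changed direction under any alternative, and every gene called both with TMM and under an alternative kept its sign. The number called (543 of 13303, 256 higher and 287 lower) was 1483 with library totals (1288 higher), 1438 with no filter (734 higher, 704 lower), 981 in DESeq2 (449 higher, 532 lower) and 104 with a minimum fold of 1.5 (53 higher, 51 lower). With only the 6 HFS libraries 389 were called higher, and no interaction could be fitted there. The interaction count, 0, was 269 with no filter and 31 in DESeq2. Leaving out 1 HFS library gave 184 to 532 called, 82 to 236 higher and 100 to 296 lower, and 0 interactions. Of the 543 genes, 536 were also called with RLE size factors (541 called), 446 with library totals, 521 with no filter, 479 with at least 1 CPM on average (490 called), 535 in DESeq2, 496 with only the HFS libraries (809 called) and 373 with a replicate block (412 called). Library totals leave out the composition factor, testing against a minimum fold is stricter by construction, and leaving out a library leaves 2 in an arm; the cause of the other differences was not tested. With 3 libraries of pooled mice in each arm, variation between single mice cannot be seen.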

Other observations

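*Xbp1* fl/fl library 2 stood apart from the other HFS-fed controls in some acute phase and ER genes, which were picked out after their values were seen. *Hpx*, the heme carrier hemopexin, had 3240.2, 9891 and 3813 CPM in *Xbp1* fl/fl libraries 1 to 3, *Fgb*, fibrinogen β, 4896, 10236 and 4414 CPM, and *C3*, the central complement protein, 6184, 10309 and 6772 CPM. In the same library some ER genes were lowest among controls and *P4hb* was highest: *Hspa5*, *Hyou1* and *P4hb* are given above, *Pdia4*, a disulfide isomerase, had 340.04, 177 and 263 CPM, and *Syvn1*, the ubiquitin ligase of ER-associated degradation, 200.4, 80.5 and 185 CPM. The *Xbp1* LKO libraries had 254, 263 and 277 CPM of *Pdia4* and 125, 93 and 72.7 CPM of *Syvn1*, and overlapped the controls for both. At the level of lists, the median difference from the control mean was 0.21 for plasma proteins and 0.18 for complement in *Xbp1* fl/fl library 2, against -0.13 and -0.01 in library 1 and -0.12 and -0.11 in library 3, -0.16 for ER chaperones, against 0.14 and 0.03, and 0.00 for ER translocation, against 0.01 and -0.01. Other lists departed further in library 2: neutrophil markers by 1.20 (-0.81 and 0.04 in libraries 1 and 3), B cell markers by 0.78 (0.12 and -0.73), endothelial markers by -0.60 (0.36 and 0.12) and carboxylesterases by -0.42 (0.11 and 0.19).

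*Xbp1* LKO library 3 stood apart in some genes of the opposite group, also picked out after their values were seen. Of the *Xbp1* LKO libraries it had the most *Nupr1*, *Psat1*, *Asns*, *Ddit3*, *Trib3* and *Cbr3*, and the least *Cps1*, but also the least *Tnfrsf10b*, with 31, 36 and 16 counts in *Xbp1* LKO libraries 1 to 3. *Tat*, tyrosine aminotransferase, had 2019, 1141 and 647 CPM and *Pck1*, the enzyme that commits carbon to glucose synthesis, 5537, 3707 and 1769 CPM in *Xbp1* LKO libraries 1 to 3, against 2442, 1888 and 2148 CPM and 5159.9, 4449 and 4341 CPM in the *Xbp1* fl/fl libraries, and neither was called. Macrophage markers, B cell markers and ribosomal protein genes were also highest there: the median difference from the control mean was 0.32, 0.53 and 1.14 for macrophage markers, 0.40, 1.34 and 2.21 for B cell markers and 0.05, -0.09 and 0.40 for cytosolic ribosomal proteins in *Xbp1* LKO libraries 1 to 3.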
